A study of Rattus norvegicus with 10 samples.

Results

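The transcripts described here are those of 35 genes that cells use to copy their DNA and to divide, measured in livers from female rats of the Harlan Sprague-Dawley strain. They were taken by name from a fixed list, and each gene was followed through the probe set annotated to it alone that had the highest mean over all 10 arrays. By this rule 32 of the 35 genes could be followed, of 14217 genes in the whole series. They comprise 11 of 12 replication genes, 20 of 21 mitotic genes and the tubulin-binding protein Stmn1. Rrm2 was not used because its 2 probe sets are each annotated to 2 genes, nor was Hmgb2, whose probe set is annotated to 4 genes. Tpx2 had no probe set named for it here and was not analysed. The dosed group consisted of 5 liver samples of rats given indole-3-carbinol (I3C), which forms when cabbage-family vegetables are chewed or cut. The dose was 300 mg per kg in corn oil by gavage on 5 days per week. The vehicle group consisted of 5 liver samples of rats given corn oil alone, at a labelled dose of 0 mg per kg, by the same route and schedule. Dosing lasted 13 weeks in both groups according to the labels, although the series was designed as a longer study. The strain, the sex, the corn oil and the gavage were thus shared by both groups, and the labels give no age.

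Most hepatocytes of an adult liver are out of the cell cycle and return to it after injury, loss of tissue or a mitogenic stimulus. The genes of the G1 to S transition and of DNA synthesis are switched on by E2F factors. Those of the G2 phase and mitosis are switched on later, through complexes that bind CHR elements and work with the CCAAT-binding factor NF-Y. In the rat, hepatocytes can also copy their DNA without completing division, which leaves polyploid or binucleate cells. Where mitosis is skipped, the genes of replication and of mitosis need not move together. The comparison of dosed with vehicle livers addresses whether transcripts of cell division differ under the dose.

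The rat promoters of the members are shown for these elements, which were no part of how the genes were chosen. RefSeq promoters on assembly GRCr8, from 250 bases before to 50 bases after the annotated start, were found for 28 of the 35 genes, 9 for replication and 17 for mitosis among them. An E2F site, searched as TTCCCGC or TTGGCGC on both strands, lay in 6 of the 9 replication promoters and in 2 of the 17 mitotic promoters, against 6.67% of 27457 promoters of the table. The CHR element, searched as TTTGAA on both strands, lay in 1 of the 9 replication promoters and in 12 of the 17 mitotic promoters, against 18.1% of all. A CCAAT box, searched as CCAAT on both strands, lay in 6 of 9 and in 14 of 17, against 37.7% of all. TTGGCGC read on the other strand can share 4 bases with CCAAT, as it does once in Mcm7, and a CHR shares 1 base with a CCAAT box in Mki67. The 5 promoters below run from 150 bases before the start to 30 bases after it, 5′ to 3′ on the strand of the gene, with matches to these motifs in capitals.
Mcm5 (chr19:13488663-13488842, plus strand): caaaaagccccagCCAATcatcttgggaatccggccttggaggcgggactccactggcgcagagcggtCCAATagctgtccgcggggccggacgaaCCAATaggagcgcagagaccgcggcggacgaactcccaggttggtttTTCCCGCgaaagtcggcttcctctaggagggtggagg
Mcm7 (chr12:22163149-22163328, minus strand): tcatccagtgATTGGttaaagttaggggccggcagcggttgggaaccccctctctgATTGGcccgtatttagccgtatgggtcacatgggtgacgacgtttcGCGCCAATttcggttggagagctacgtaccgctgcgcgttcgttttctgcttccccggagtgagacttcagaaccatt
Cdk1 (chr20:19265143-19265322, plus strand): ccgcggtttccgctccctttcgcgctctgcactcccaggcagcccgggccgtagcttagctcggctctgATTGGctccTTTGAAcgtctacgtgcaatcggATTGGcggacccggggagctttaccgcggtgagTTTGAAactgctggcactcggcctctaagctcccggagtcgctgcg
Ccnb2 (chr8:79981629-79981808, minus strand): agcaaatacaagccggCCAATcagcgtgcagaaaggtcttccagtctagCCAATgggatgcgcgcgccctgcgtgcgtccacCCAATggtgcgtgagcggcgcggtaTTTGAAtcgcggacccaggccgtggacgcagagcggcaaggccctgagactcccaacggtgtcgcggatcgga
Mki67 (chr1:199952564-199952743, minus strand): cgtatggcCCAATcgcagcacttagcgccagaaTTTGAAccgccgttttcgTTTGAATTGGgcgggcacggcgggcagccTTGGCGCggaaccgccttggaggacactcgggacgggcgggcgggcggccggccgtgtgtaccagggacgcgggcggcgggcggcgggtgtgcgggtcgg
Mcm5 and Mcm7 each carry an E2F site and 3 CCAAT boxes within these stretches and no CHR. Ccnb2 carries 3 CCAAT boxes and a CHR without an E2F site, the arrangement typical of mitotic promoters. Cdk1 has 2 CHR matches in this stretch, and its E2F site lies further upstream, 180 bases before the start. Mki67 has both kinds of element. A match is a description of the letters and does not show that a factor binds there.

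**Figure D1:**
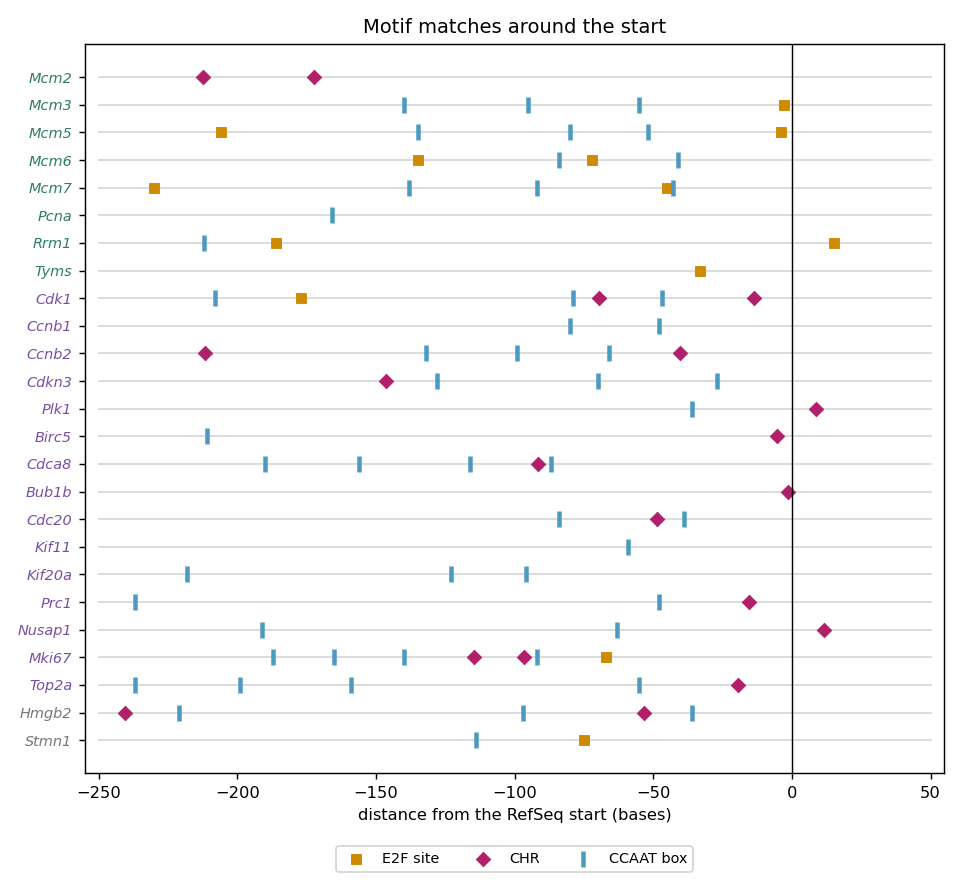
Positions of motif matches in the 25 members with at least 1 match, in bases from the RefSeq start at 0 (gene names in green for replication, purple for mitosis, grey for Hmgb2 and Stmn1). Squares are E2F sites, diamonds CHR elements and bars CCAAT boxes. Squares lie mostly in the replication rows, with 6 of 9 promoters against 2 of 17, and diamonds in the mitotic rows, with 12 of 17 against 1 of 9.

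None of the 32 genes was called as different between dosed and vehicle livers. Adjusted p ranged from 0.206 to 0.996 in limma with Benjamini-Hochberg adjustment over 31042 probe sets, and 4 genes had an unadjusted p under 0.05, all of them mitotic genes lower in dosed livers. These are 12.5% of the members, where 19.8% of all genes had an unadjusted p under 0.05. Over all 14217 genes, 6.43% were called at the threshold of 0.05 for the adjusted p, 3.32% as higher and 3.11% as lower. The groups overlapped for every one of the 32 genes, whereas 8.67% of all genes had no overlap, 4.61% with the dosed livers higher and 4.07% with them lower. The data do not show that the members were unaltered. The 95% intervals of all 32 differences lay within 0.5 on the log2 scale either way, as they did for 87.5% of all genes. The bound farthest from 0 was that of Cdkn3 at -0.46, or 1.37-fold lower. These bounds depend on the model. With the signal of the 3' minus that of the 5' GAPDH control probe set, a measure of RNA quality, as a covariate, 22 of the 32 intervals lay within 0.5, the bounds reached -0.91 for Rrm1 and 0.63 for Birc5, and 10 members changed sign. With the same measure of beta-actin 25 lay within 0.5. Both measures differed between the groups, so these fits cannot separate RNA quality from the dose. The bounds are those of the deposited RMA values, which compress differences of dim probe sets. They describe whole liver, in which fewer cells of a type and less RNA per cell cannot be told apart.

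**Figure D2:**
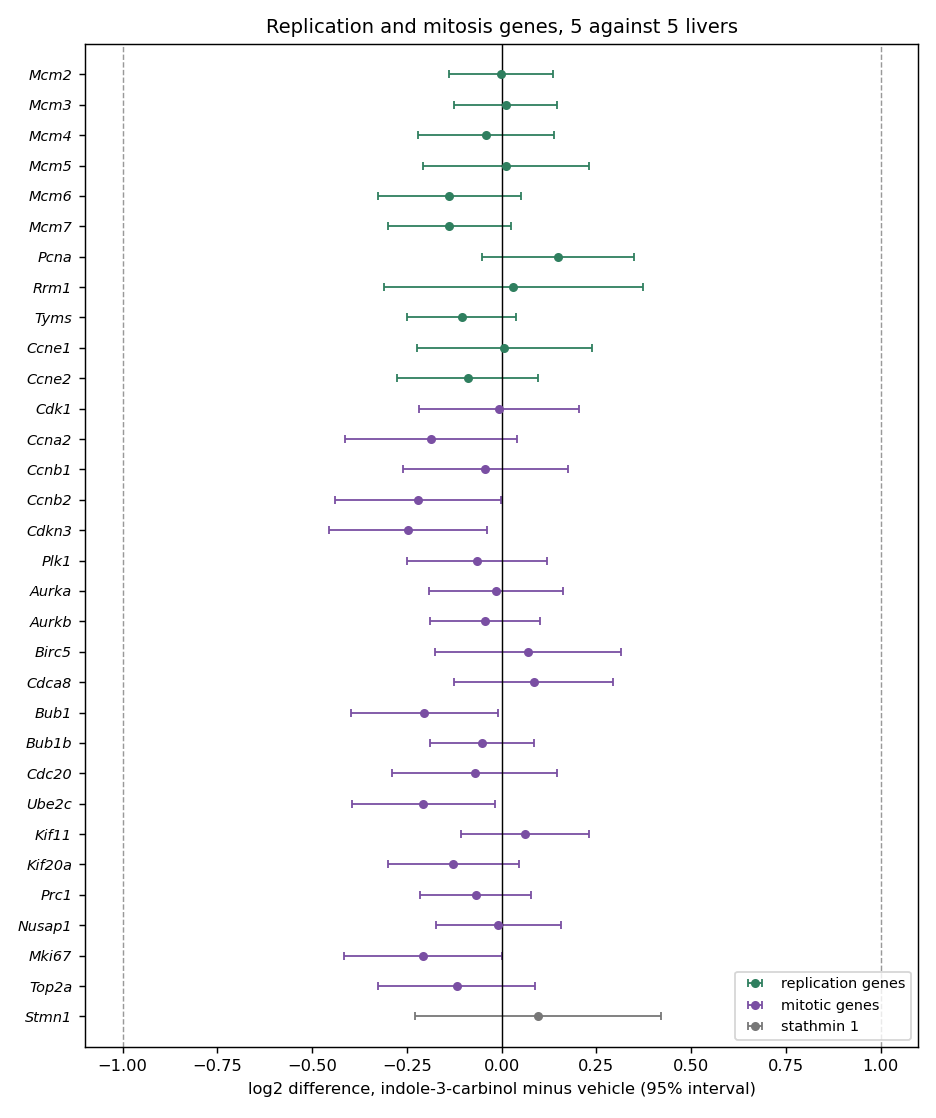
Log2 difference of dosed minus vehicle livers for each of the 32 measured genes (points) with its 95% interval from limma (bars), n = 5 per group. The dashed lines mark a 2-fold difference (1 on the log2 scale). In this fit, without a covariate, all intervals lie inside them, between -0.46 and 0.42.

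The arrays, the tissue and the dose were checked first. Array medians were 6.21 to 6.29, and Alb, the plasma albumin made by hepatocytes, averaged 15.11 ± 0.01 in dosed and 15.11 ± 0.01 in vehicle livers (SD, n = 5 each). Alb was the brightest probe set of the series and reached its highest value, 15.12, in both groups. At this ceiling equal means do not show that the groups had alike hepatocyte content. Cyp1a1, the P450 enzyme induced through the aryl hydrocarbon receptor, averaged 13.91 ± 0.04 in dosed and 5.53 ± 0.40 in vehicle livers (SD, n = 5 each), with no overlap. The array of vehicle 5 stood apart, with an array weight of 0.24 where the other arrays had 0.68 to 1.65. The count of members called was 0 with and without it. RNA quality, read as the signal of the 3' minus that of the 5' GAPDH control probe set, was 0.23 ± 0.05 in dosed and 0.45 ± 0.12 in vehicle arrays (SD, n = 5 each; exact permutation p = 0.00794, two-sided, 0.0159 adjusted over 2 such measures). The groups did not overlap on this measure, from 0.16 to 0.29 in dosed and from 0.32 to 0.65 in vehicle arrays. Vehicle 5 was highest. As a covariate it raised the members' median SE from 0.088 to 0.142. The same measure of beta-actin was 1.40 in dosed and 1.59 in vehicle arrays (exact permutation p = 0.0476, two-sided, 0.0476 adjusted). The members' count was also 0 with either measure as a covariate, in fits that cannot separate RNA quality from the dose.

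The replication genes were centred on 0. Their median difference was 0.00 on the log2 scale, from -0.14 to 0.15, beside a median of 0.00 over all genes, and 6 of 11 lay below 0. The MCM proteins form the ring-shaped helicase that opens the DNA at replication origins. Mcm2 had 6.68, 6.67, 6.73, 6.77 and 6.71 in dosed livers, against 6.69, 6.60, 6.79, 6.64 and 6.85 in vehicle livers. All 5 dosed values fell within the range of the vehicle values. Mcm3 differed by 0.01 ± 0.06, Mcm4 by -0.04 ± 0.08, Mcm5 by 0.01 ± 0.10 and Mcm6 by -0.14 ± 0.09 (SE). Mcm7, the brightest of the 6, had 8.12, 8.18, 8.18, 8.40 and 8.23 in dosed livers, against 8.26, 8.31, 8.27, 8.44 and 8.52 in vehicle livers. In it 4 dosed livers lay below all vehicle livers and dosed 4 among them, with a difference of -0.14 ± 0.08 (SE, limma adjusted p = 0.423). The 6 helicase subunits thus had differences from -0.14 to 0.01, and 0 of them passed.

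Pcna, the sliding clamp that holds DNA polymerase on its template, had the highest difference of the members. It had 9.75, 9.75, 9.74, 9.87 and 9.65 in dosed livers, against 9.70, 9.78, 9.61, 9.67 and 9.25 in vehicle livers. The low mean of the vehicle group rested on vehicle 5. The difference was 0.15 ± 0.09 (SE, limma adjusted p = 0.50) and 0.06 ± 0.06 without vehicle 5. With the GAPDH covariate it was -0.19 ± 0.10, on the other side of 0. Rrm1, the large subunit of ribonucleotide reductase, which makes deoxynucleotides, had 6.88, 7.08, 7.15, 7.09 and 7.03 in dosed livers, against 7.07, 7.22, 7.13, 7.36 and 6.32 in vehicle livers. Here too vehicle 5 was lowest, and the difference was 0.03 ± 0.16 with it and -0.14 ± 0.08 without it (SE, limma adjusted p = 0.963 and 0.323). With the GAPDH covariate it was -0.51 ± 0.18 (adjusted p = 0.23), the member farthest from 0 in that fit. Tyms, the thymidylate synthase, differed by -0.11 ± 0.07. The E cyclins, which start S phase with CDK2, differed by 0.01 ± 0.11 for Ccne1 and by -0.09 ± 0.09 for Ccne2 (SE).

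The mitotic genes lay mostly below 0, by small amounts. Their median difference was -0.07 on the log2 scale, from -0.25 to 0.08, and 17 of 20 were below 0, where 51.4% of all genes were. With the GAPDH covariate 13 of 20 were below 0, with a median of -0.06. Of 63 other mitotic genes 32 lay below 0, with a median of 0.00. At an unadjusted p under 0.05, 4 of 20 were lower and 0 higher, where 10.2% of all genes were lower and 9.62% higher. After adjustment 0 of 20 passed. The unadjusted counts moved with single arrays. Without vehicle 2, 14 of 20 lay below 0, and 0 of the 32 members were lower at an unadjusted limma p under 0.05. Without vehicle 3 these counts were 17 and 6. With repeated quantile normalisation or median centring 15 of 20 lay below 0. The genes share the arrays and are correlated with each other, so that 20 genes do not count as 20 separate observations.

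Cdkn3, a phosphatase that acts on CDK1 and CDK2, was the member with the lowest p. It had 4.91, 4.87, 4.84, 4.97 and 4.99 in dosed livers, against 4.96, 5.43, 5.09, 5.36 and 4.97 in vehicle livers. The dosed values were tightly grouped, and vehicle 2 and vehicle 4 stood above the rest. The difference was -0.25 ± 0.10 (SE), with a 95% interval from -0.46 to -0.04 and a limma adjusted p of 0.206. With the GAPDH covariate it was -0.46 ± 0.14 (adjusted p = 0.159). Ube2c, the ubiquitin-conjugating enzyme of the anaphase-promoting complex, had 5.63, 5.58, 5.73, 5.70 and 5.54 in dosed livers, against 5.91, 5.98, 5.58, 5.72 and 6.01 in vehicle livers. Vehicle 1, 2 and 5 were above all dosed livers, and vehicle 3 and 4 lay among them (difference -0.21 ± 0.09, SE, limma adjusted p = 0.254). Bub1, a kinase of the spindle checkpoint, had 4.38, 4.41, 4.63, 4.50 and 4.24 in dosed livers, against 4.62, 4.76, 4.38, 4.70 and 4.71 in vehicle livers. Vehicle 3 fell among the dosed values and vehicle 1 just below dosed 3 (-0.20 ± 0.09, adjusted p = 0.28). Its relative Bub1b, which restrains the anaphase-promoting complex until chromosomes are attached, differed by -0.05 ± 0.06. Cdc20, the activator of that complex, differed by -0.07 ± 0.10, and by -0.38 ± 0.13 with the GAPDH covariate (SE, limma adjusted p = 0.834 and 0.197).

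CDK1 and its cyclins drive entry into mitosis. Ccnb2 had 5.40, 5.81, 5.56, 5.61 and 5.63 in dosed livers, against 5.69, 6.12, 5.83, 5.60 and 5.87 in vehicle livers. The groups overlapped through dosed 2 and vehicle 4, and the difference was -0.22 ± 0.10 (SE, limma adjusted p = 0.309). Cdk1 itself had 5.80, 5.81, 5.89, 6.03 and 5.92 in dosed livers, against 5.81, 6.15, 5.62, 6.07 and 5.84 in vehicle livers. Its vehicle values spread to both sides of the dosed values, with a difference of -0.01 ± 0.10 and an interval from -0.22 to 0.20. Ccnb1 differed by -0.04 ± 0.10. Ccna2, which serves in S phase and G2, differed by -0.19 ± 0.10 at a mean of 3.62 over all arrays, close to the lowest value of the table, 3.00. All 4 genes varied less among dosed than among vehicle livers, with SDs of 0.09 to 0.15 against 0.20 to 0.24. The dosed SD was also the smaller one for 66.2% of all genes.

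Mki67, which encodes the Ki-67 antigen used to stain dividing cells, had 4.07, 4.47, 4.48, 4.26 and 4.38 in dosed livers, against 4.40, 4.68, 4.46, 4.73 and 4.43 in vehicle livers. Vehicle 2 and vehicle 4 were above all dosed livers, and the other 3 lay close to the upper dosed values. The difference was -0.21 ± 0.10 (SE), with an interval from -0.42 to 0.00 and a limma adjusted p of 0.316. Top2a, the topoisomerase that untangles sister chromosomes, had 5.46, 5.49, 5.38, 5.58 and 5.69 in dosed livers, against 5.54, 5.85, 5.35, 5.70 and 5.76 in vehicle livers. These groups overlapped widely (-0.12 ± 0.10, adjusted p = 0.645).

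**Figure D3:**
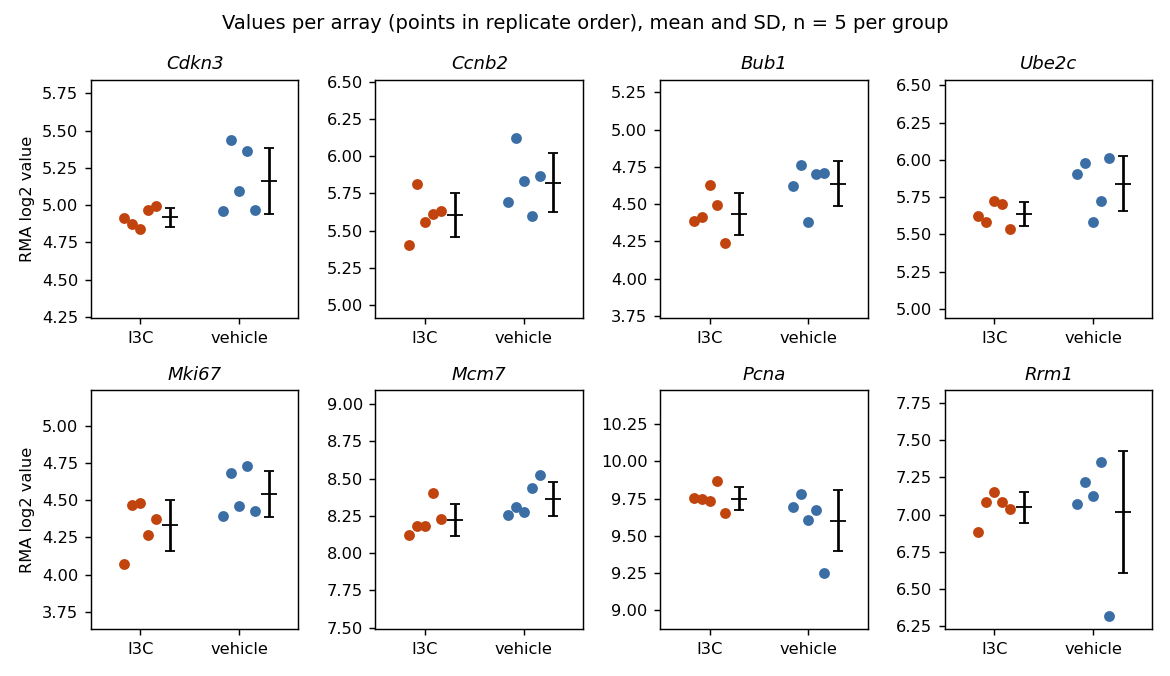
RMA log2 values of 8 genes in each array (points, in the order of the replicate numbers) with the mean and SD of each group, n = 5, dosed (I3C) left and vehicle right. Each panel spans 1.6 log2 units. The groups overlap in every panel, and vehicle 5 is the low point of Pcna (9.25) and Rrm1 (6.32).

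Among the kinases and spindle proteins, Plk1, which acts from mitotic entry to exit, differed by -0.07 ± 0.09, Aurka, the kinase of the spindle poles, by -0.01 ± 0.08, and Aurkb, the kinase of the chromosomal passenger complex, by -0.04 ± 0.07 (SE). Birc5 and Cdca8, the survivin and borealin subunits of that complex, had 0.07 ± 0.11 and 0.08 ± 0.10. With Kif11 they were the 3 mitotic genes above 0. Kif11, the motor that pushes the spindle poles apart, had 0.06 ± 0.08, and Kif20a, a motor of cytokinesis, had -0.13 ± 0.08. The microtubule proteins Prc1 and Nusap1 had -0.07 ± 0.07 and -0.01 ± 0.08. Stmn1, which destabilises microtubules and belongs to neither group, had 7.62, 7.63, 7.77, 7.79 and 7.66 in dosed livers, against 7.53, 8.02, 7.37, 7.96 and 7.11 in vehicle livers. Its dosed values all lay inside a vehicle range that was far wider, with an SD of 0.08 against 0.39 and a difference of 0.09 ± 0.15 (SE). The difference was -0.38 ± 0.19 with the GAPDH covariate and -0.03 ± 0.12 without vehicle 5, both on the other side of 0.

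**Figure D4:**
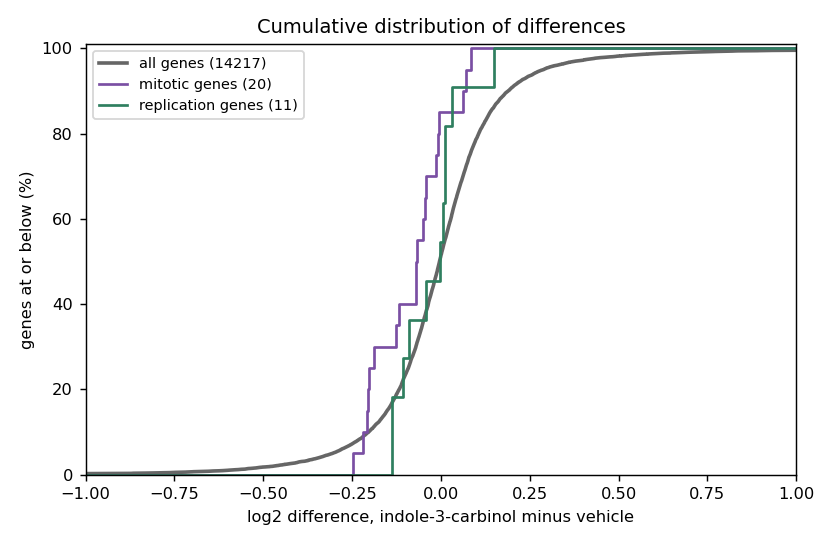
Cumulative share of genes (y axis, %) at or below a given log2 difference of dosed minus vehicle livers (x axis, drawn from -1 to 1) for all genes, the 20 mitotic and the 11 replication genes. At its median the mitotic curve lies left of the curve of all genes, at -0.07 against 0.00, but it starts at -0.25, where the curve of all genes has already risen. The replication curve crosses that of all genes near 0.

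Several members had more than 1 probe set, 6 in number, and 0 of all 41 probe sets of the members were called. The second probe set of Nusap1 lay at -0.22 ± 0.11 where the brightest was at -0.01 ± 0.08 (SE). The second of Ccnb1 was at -0.12 ± 0.11, and that of Top2a at 0.02 ± 0.06, on the other side of 0 from its brightest. The 5 probe sets of Cdc20 ranged from -0.07 to 0.08.

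Most of the mitotic probe sets were dim. Of the 20 mitotic genes 18 lay below the median of all probe sets in mean value, as did 5 of the 11 replication genes, where 4735 of 14217 genes did. The table holds no detection calls, so which of these transcripts were above background is not known from the values used here. The brightest members were Pcna at 9.68 and Mcm7 at 8.29 over all arrays. These positions are of probe sets and do not rank transcripts by abundance.

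Replication and mitotic genes were set against each other in each array. A score was formed as the mean over a list of each gene's value minus its own mean over the 10 arrays. The replication score was -0.07, -0.03, 0.01, 0.06 and -0.04 in dosed livers 1 to 5, against -0.01, 0.00, 0.03, 0.03 and 0.02 in vehicle livers 1 to 5. The vehicle scores all lay within the range of the dosed scores. The mitotic score was -0.08, -0.07, -0.02, 0.02 and -0.05 in dosed livers, against 0.00, 0.13, -0.08, 0.05 and 0.10 in vehicle livers. Vehicle 2, 5 and 4 were highest in that order and vehicle 3 was next to the lowest, so the groups overlapped. The group means of the mitotic score were -0.04 ± 0.04 in dosed and 0.04 ± 0.08 in vehicle livers (SD, n = 5 each).

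The scores went together in part, but the replication score is a mean of genes that did not share a course over the arrays. Across the 10 arrays, which give both scores from the same hybridisation, Pearson's r was 0.434 and Spearman's rho 0.418, as a description without a test. Without dosed 1 and dosed 4, the 2 arrays farthest from the median replication score, r was 0.305, and for deviations from the group means it was 0.293. In the dosed livers dosed 4 was highest and dosed 1 lowest on both scores. In the vehicle livers vehicle 3 was highest on the replication score and lowest on the mitotic score. Genes followed each other loosely within the mitotic list and hardly within the replication list. The median correlation of pairs, on deviations from the group means, was 0.210 over 190 mitotic pairs, 0.031 over 55 replication pairs and 0.004 over all gene pairs of the series. The share of pairs above 0.5 was 18.4%, 12.7% and 15.6% in the same order. Nusap1 (r = 0.911), Cdk1 (0.775), Ccna2 (0.751), Ube2c (0.746), Top2a (0.741) and Bub1 (0.724) followed the mean of the other mitotic genes most closely. Aurkb (-0.414) and Birc5 (-0.283) ran against it. The median r of a gene with the mean of the others was 0.364 in the mitotic list and -0.024 in the replication list. Of the mitotic genes 15 had r above 0 and 9 above 0.5. Of the replication genes 5 had r above 0 and 0 above 0.5, from -0.507 for Mcm3 to 0.462 for Mcm7. Of the 20 mitotic genes 14 had their lowest value in a dosed array, and 14 had their highest in a vehicle array, 7 in vehicle 2 and 5 in vehicle 5. The same shares over all genes were not computed. Without those shares these counts are not read as a trait of the mitotic genes.

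**Figure D5:**
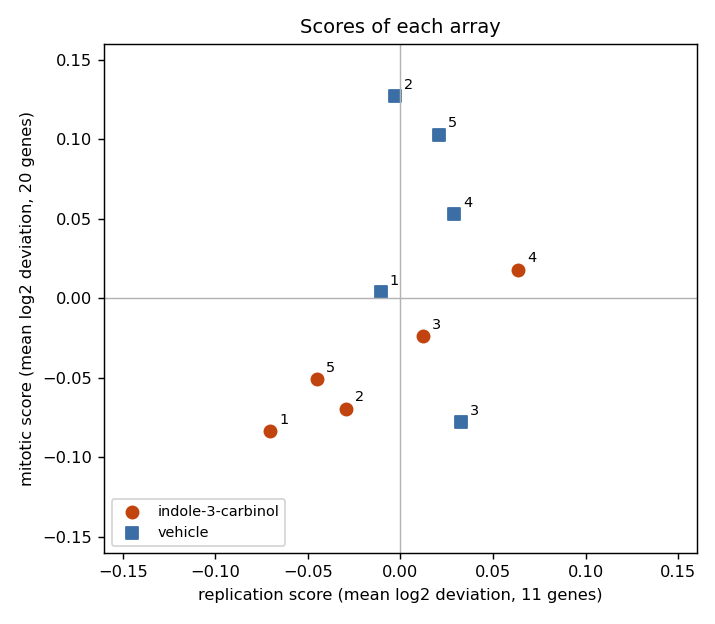
Mitotic score (y axis) against replication score (x axis) of each array, both as mean log2 deviations, with circles for dosed and squares for vehicle livers and the replicate number beside each. The dosed livers run from 1 at the lower left to 4 at the right, and vehicle 2, 5 and 4 lie above them while vehicle 3 lies low on the mitotic score.

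Markers of other cells were set beside these scores, since cells that divide in liver need not be hepatocytes. All 6 measured macrophage markers lay below 0, with a median difference of -0.34, and 1 of them, C1qa, a complement subunit, fell by 0.37 ± 0.08 (SE, limma adjusted p = 0.0197). Its call ended without dosed 5 or vehicle 1 (adjusted p = 0.0516 and 0.0525). It also ended with the GAPDH covariate (-0.33 ± 0.14, limma adjusted p = 0.287), and it held with the beta-actin covariate (-0.48 ± 0.09, adjusted p = 0.0214). At an unadjusted p under 0.05, 5 of the 6 were lower and 0 higher, where 10.2% of all genes were lower and 9.62% higher. For 4 of the 6 the groups did not overlap, with dosed livers lower, as for 4.07% of all genes. The score of the macrophage markers ran from -0.48 to -0.06 in dosed and from 0.06 to 0.31 in vehicle livers, without overlap. Of 8 lymphocyte markers 0 were called, with a median of 0.00, and of 4 endothelial markers 0 were called, with a median of -0.12. None was called of 3 cholangiocyte, 4 erythroid and 2 neutrophil markers. Of 7 stellate cell and pericyte markers 5 lay below 0, with a median of -0.14, and 1, Rgs5, rose by 1.33 ± 0.18 (SE, limma adjusted p = 0.000865). At an unadjusted p under 0.05, 2 of these 7 were lower and 1 was higher. Of 7 hepatocyte markers 4 lay below 0, with a median of -0.01, and 1, Apoa1, rose by 0.38 ± 0.07 (SE, limma adjusted p = 0.00883). Here too 2 were lower and 1 was higher at an unadjusted p under 0.05. The part of these markers in the mitotic scores was not tested.

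Other genes of the same processes were taken from 3 lists of 145 genes, of which 129 were measured, and 4 rose and 1 fell. This is 5 of 129, where 6.43% of all genes were called. Of 46 other replication genes 0 rose and 1 fell. Pola1, the catalytic subunit of DNA polymerase alpha, had 4.37, 4.56, 4.51, 4.37 and 4.47 in dosed livers, against 4.72, 4.71, 4.79, 4.91 and 4.70 in vehicle livers. The groups did not overlap, and it fell by 0.31 ± 0.07 (SE, limma adjusted p = 0.0174), from a dim probe set. The call ended with the GAPDH covariate (-0.28 ± 0.11, adjusted p = 0.273) and with the beta-actin covariate (-0.21 ± 0.08, adjusted p = 0.21).

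Of 63 other mitotic genes 3 rose and 0 fell. Zwint, a kinetochore protein, had 10.34, 10.26, 10.33, 10.13 and 10.42 in dosed livers, against 9.61, 9.63, 9.70, 9.75 and 9.85 in vehicle livers. It rose by 0.59 ± 0.07 (SE, limma adjusted p = 0.000512) without overlap. Cks1b, a small partner of cyclin-dependent kinases, had 9.64, 9.86, 9.48, 9.51 and 9.37 in dosed livers, against 8.94, 9.01, 9.05, 8.82 and 8.54 in vehicle livers, and rose by 0.70 ± 0.11 (adjusted p = 0.00268). Its second probe set rose as well, by 0.41 ± 0.07 (adjusted p = 0.00671). Lmnb1, the lamin B1 of the nuclear envelope, had 8.34, 8.03, 7.92, 8.09 and 7.63 in dosed livers, against 7.25, 6.92, 7.30, 7.05 and 7.21 in vehicle livers. It rose by 0.86 ± 0.12 (adjusted p = 0.00117). Of its other 2 probe sets one rose by 0.36 ± 0.07 (adjusted p = 0.0133) and the other had 0.17 ± 0.11, and the mean of the 3 rose by 0.46. With the GAPDH difference as a covariate the calls of Cks1b (0.46 ± 0.17, adjusted p = 0.231) and Lmnb1 (0.92 ± 0.20, adjusted p = 0.0547) ended, and that of Zwint did not (0.76 ± 0.10, adjusted p = 0.00625).

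Of 20 measured regulators of the cell cycle, the E2F, pocket protein and MYB families among them, 1 rose and 0 fell. Mybl1, a transcription factor of the MYB family also known as A-MYB, had 7.16, 8.57, 7.63, 8.37 and 6.30 in dosed livers, against 4.83, 6.37, 5.60, 5.96 and 5.25 in vehicle livers. The groups overlapped only where dosed 5 lay just below vehicle 2. It rose by 2.01 ± 0.40 (SE, limma adjusted p = 0.0109), which is 4.02-fold, with SDs of 0.93 in dosed and 0.60 in vehicle livers. The call ended without variance moderation (2.01 ± 0.49, adjusted p = 0.0821), with the GAPDH covariate (1.58 ± 0.66, adjusted p = 0.292) and with the beta-actin covariate (1.99 ± 0.53, adjusted p = 0.0817), with larger SEs in all 3.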

How the data were processed

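Liver RNA of 10 samples, 5 from dosed and 5 from vehicle rats, was measured on rat whole-genome 3' arrays. The authors' deposited table holds log2 values of 31099 probe sets, made with RMA per the submitters' processing notes; its version and software are not stated in those notes. RMA evens out array distributions and compresses differences of dim probe sets. Without 57 control probe sets, 31042 were tested. Gene names came from the 2016 platform annotation and, by Entrez ID, from RefSeq on GRCr8: 20826 carry 1 gene, 436 several and 9780 none here. Each of 14217 genes was followed through its brightest probe set.

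The test of dosed minus vehicle arrays was two-sided in limma 3.58.1 under R 4.3.3, by lmFit and eBayes with no trend (4.598 prior degrees of freedom). P-values were adjusted over 31042 probe sets by Benjamini-Hochberg, with a threshold of 0.05. Differences carry their SE from this fit after ±. "Rose" and "fell" are used past the threshold. Columns not matched to a sample numbered 0. The fit was tested on simulated data. Two-sided exact permutation tests over 252 splits served the RNA quality measures. The members and lists were chosen with earlier results of these data known, so no list was tested. The named genes were all members, up to 4 called genes per direction from each list of other pathway genes, called markers, Alb and Cyp1a1. The labels do not say that samples with the same number belong together, and the deviations of same-numbered arrays correlated from -0.28 to 0.22, so the replicate number was a block only as an alternative. The labels give no animal numbers, so p-values rest on the spread between the samples, which may be technical in part. The alternatives were another variance model, no variance moderation, the block, a filter on dim probe sets, repeated quantile normalisation, median centring, array weights, other thresholds, averaging the probe sets of a gene, the 3' minus 5' differences of GAPDH and beta-actin as covariates, and leaving out each array.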

Additional observations from a re-analysis of the deposited data

Results flagged for a closer look

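Among 88 groups of 5 values, those of the 32 members, the 2 scores and the other named genes, 2 held an array far from the other 4, where chance gives about 1 in 20, or 4.4. Both were vehicle 5. Rrm1 was 6.32 in vehicle 5 and 7.07 to 7.36 in the other vehicle livers. Prc1, the protein that bundles the central spindle, was 5.87 in vehicle 5 and 5.63 to 5.66 in the other vehicle livers. Without vehicle 5 the differences were -0.14 ± 0.08 for Rrm1 and -0.02 ± 0.06 for Prc1 (SE), and neither passed limma (adjusted p = 0.323 and 0.866).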

How the results depend on the processing

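Under all 22 alternatives 0 members were called, and the lowest adjusted p was 0.0869 for Cdkn3 without vehicle 5. Of 617 recomputed differences of members 54 changed sign, none of them called. 11 members lay below 0 and 2 above 0 under all alternatives. The median of the replication genes was -0.045 with the beta-actin covariate and ran from -0.058 to 0.0019 with 1 array left out. That of the mitotic genes stayed below 0, from -0.09 to -0.05 with 1 array left out and at -0.13 with the beta-actin covariate. A filter on dim probe sets left 9 members, 6 replication and 2 mitotic genes among them. With the replicate block 345 genes of the series rose and 302 fell, the medians were 0.00 and -0.07, and 0 members were called. It ended the call of Pola1, so that 0 other pathway genes fell, and changed no other call of a gene named from those 3 lists. No dosed array correlated best with the vehicle array of its own number (0 of 5). Over all genes, 114 rose and 114 fell with the GAPDH covariate, 282 and 216 with the beta-actin covariate, and 253 and 184 at an adjusted p of 0.01. With array weights 667 rose and 676 fell, and without variance moderation 342 rose and 252 fell. With 1 array left out 343 to 544 rose and 305 to 699 fell, the last without vehicle 5. Of the other pathway genes, 1 rose with the GAPDH covariate and 7 at an adjusted p of 0.1. In the other direction 2 fell without dim probe sets, with repeated quantile normalisation, with the mean of probe sets or with the beta-actin covariate, 4 with array weights or without vehicle 5, 3 at an adjusted p of 0.1 and 0 at 0.01. With 1 array left out 4 to 6 rose and 1 to 4 fell. At the threshold of 0.05 C1qa lost its call under 5 alternatives, the replicate block among them (limma adjusted p = 0.0731). Its adjusted p in the main fit, 0.0197, was also above the other threshold of 0.01. Apoa1 lost its call with either covariate, and Rgs5 with the GAPDH covariate. The cause of these changes was not tested. The number of arrays and the low signal of most mitotic probe sets limit what can be seen.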
